A study of Mus musculus with 7 samples.

Results

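A set of 10 genes that mark osteocytes was followed in sorted osteoblasts of mice with and without a lung tumor: Dmp1, Phex, Mepe, Sost, Fgf23, Pdpn, Fam20c, Kcnk2, Reln and Ackr3. They were taken by their symbols, and all 10 were among the 23725 Entrez gene IDs of the series. Pdpn, Phex and Kcnk2 were counted in every one of the 7 libraries. The other 7 genes, among them Dmp1, Mepe and Sost, which define embedded and mature osteocytes, had 0 to 9 counts in all libraries together. Low totals were common here: 25.02% of all IDs reached 10 counts. Osteoblast genes were unequal too, as Bglap, the osteocalcin gene, had 8 counts over all libraries and Col1a1 had 305. A low total at this depth does not show that a gene was absent from the cells. None of the 3 genes with enough counts passed the test between tumor-bearing and tumor-free mice.

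The tumor-bearing group (osteoblast_tumor) held 4 male C57BL/6 mice given AdCre, an adenovirus that carries Cre recombinase, into the trachea, and taken 14 weeks later; 3 were 31 weeks old and replicate 4 was 23 weeks old. The tumor-free group (osteoblast_ctrl) held 3 male C57BL/6 mice, replicates 1 and 2 at 31 weeks and replicate 3 at 23 weeks of age. Both groups carried the same alleles, KrasLSL-G12D/WT and p53Flox/Flox, which Cre recombines, and an Ocn GFP reporter driven by the osteocalcin promoter; the mice were matched for litter too, and the labels do not say what tumor-free mice were given. Collagenase digests of all bones were pooled with marrow depleted of lineage-positive cells, and 2000 cells that were CD45-, CD31-, Ter119- and GFP+ were sorted per mouse. The gate goes by reporter fluorescence and not by stage of the lineage, and 1 library was made per mouse. Library totals lay between 77127 and 169774 counts, with means of 121741 ± 41756 counts (SD, n = 4) with and 114570 ± 10969 counts (SD, n = 3) without a tumor (p = 0.800 by a two-sided exact permutation test; the 35 splits allow no p below 0.0286). The comparison asked whether a distant lung tumor goes with a change of gene expression in bone cells.

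Osteocytes are osteoblasts that have become walled into the matrix they made, joined to each other and to the surface by long cell processes. While embedding, the cell first makes proteins of the process, such as podoplanin, and of mineral and phosphate handling, such as PHEX and DMP1. Mature osteocytes release sclerostin, which restrains bone formation, and FGF23, the hormone through which bone controls phosphate excretion by the kidney. In bulk samples, fewer cells of one type and less RNA per cell cannot be told apart.

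The sequences before the start sites are given for a pair of counted genes, Phex and Pdpn, and a pair of matrix genes with few counts, Mepe and Dmp1. Dmp1 has 2 annotated starts, and the one shown is the inner one, which held a match; the start at its 5' end (chr5:104197325-104197624) held none. RefSeq promoters (build GRCm38.p6, the assembly of mm10), each from 250 bases before to 50 bases after an annotated start, were found for all 10 genes, 14 starts in all. Capitals mark matches, on either strand, to TGTGGT, the core letters bound by RUNX factors such as RUNX2, which specifies osteoblasts; the lower-case remainder carries none.
Phex, chrX:157415237-157415536, minus strand: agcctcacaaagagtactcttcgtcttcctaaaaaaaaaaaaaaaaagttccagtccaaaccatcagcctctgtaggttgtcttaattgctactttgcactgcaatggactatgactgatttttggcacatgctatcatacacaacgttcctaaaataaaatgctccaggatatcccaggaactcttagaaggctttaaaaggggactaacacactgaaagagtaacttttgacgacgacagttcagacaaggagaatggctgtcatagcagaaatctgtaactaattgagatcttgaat
Pdpn, chr4:143299515-143299814, minus strand: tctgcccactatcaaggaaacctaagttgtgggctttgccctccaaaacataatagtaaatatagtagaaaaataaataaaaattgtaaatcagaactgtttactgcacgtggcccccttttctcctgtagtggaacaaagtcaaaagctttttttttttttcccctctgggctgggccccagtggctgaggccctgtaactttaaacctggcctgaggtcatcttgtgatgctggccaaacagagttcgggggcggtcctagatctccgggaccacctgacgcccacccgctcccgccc
Mepe, chr5:104325079-104325378, plus strand: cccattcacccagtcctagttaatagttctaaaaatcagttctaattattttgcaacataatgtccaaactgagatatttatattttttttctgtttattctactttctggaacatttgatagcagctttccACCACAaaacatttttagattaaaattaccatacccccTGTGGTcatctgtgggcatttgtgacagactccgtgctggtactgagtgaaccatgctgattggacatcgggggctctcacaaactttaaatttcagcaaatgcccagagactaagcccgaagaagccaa
Dmp1, chr5:104202367-104202666, plus strand: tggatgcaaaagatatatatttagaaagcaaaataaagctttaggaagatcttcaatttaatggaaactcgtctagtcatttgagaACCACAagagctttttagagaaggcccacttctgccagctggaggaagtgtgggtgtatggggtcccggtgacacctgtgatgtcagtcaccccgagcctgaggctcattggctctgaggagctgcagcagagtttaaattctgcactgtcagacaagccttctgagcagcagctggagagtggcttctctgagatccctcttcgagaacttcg
The RUNX letters were found at 1 start each of Dmp1 and Ackr3 and at the start of Mepe, 3 of 14 starts, against 16.8% of 32851 promoters of the same length. None of the starts of Phex, Pdpn or Kcnk2 held them, and neither did those of the sparse genes Sost, Fgf23, Fam20c and Reln. The letters TATAAA, read on the gene's strand, were found at 1 start, that of Ackr3 (8.32% of all promoters), and CTANNNNTAG, the core of MEF2 sites on either strand, at 0 of 14 (3.69% of all promoters). A match or its absence describes these letters only, and no binding was measured. The Runx2 transcript itself had 7 to 35 counts per library.

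Detection was uneven among the 10 genes. The 3 genes Pdpn (170 counts over all libraries), Phex (127) and Kcnk2 (123) held 420 of the 436 counts of the list, 96.3%. By total count they ranked 1317, 1606 and 1642 among all gene IDs. A total of 100 counts or more was reached by 8.16% of all IDs, and by 3 of these 10 genes. Fgf23 had 9 counts, Dmp1 3 counts, and Mepe, Sost, Reln and Ackr3 1 count each. Fam20c had 0 counts in all 7 libraries. At least 1 count was present for 56.2% of all IDs, against 9 of the 10 genes. The number of the 10 genes with a count was 3, 3, 5 and 6 in tumor-bearing replicates 1 to 4 and 5, 4 and 5 in tumor-free replicates 1 to 3; the lowest numbers belonged to the libraries with the fewest counts. These are amounts of sampled 3'-end tags, and how evenly tags of different genes were sampled was not tested. They are not read as levels compared between genes.

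**Figure D1:**
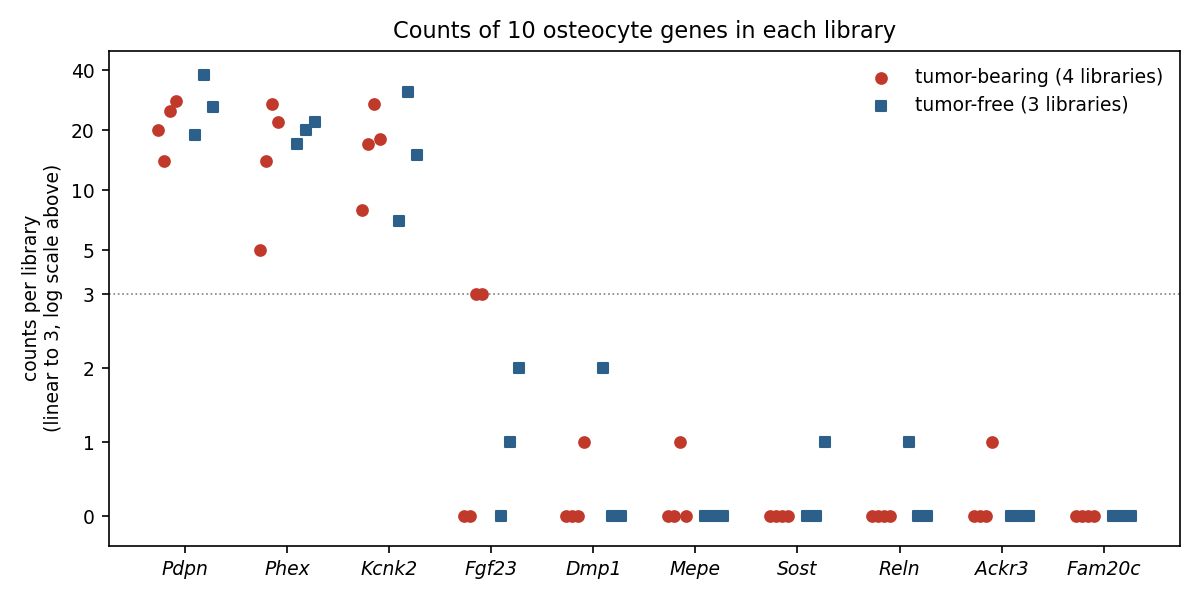
Counts of each osteocyte gene (horizontal axis, ordered by total) in each library (vertical axis, counts, linear to 3 and logarithmic above; points of a group run from replicate 1 at the left). Circles are the 4 tumor-bearing and squares the 3 tumor-free libraries; Pdpn, Phex and Kcnk2 sit between 5 and 38 counts, and the other genes at 3 counts (dotted line) or fewer.

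The genes of phosphate control were unequal. Phex, a membrane peptidase whose loss raises FGF23 and causes X-linked hypophosphataemia, lies on chromosome X (157162075 to 157415286, minus strand). It had 5, 14, 27 and 22 counts in tumor-bearing replicates 1 to 4, and 17, 20 and 22 counts in tumor-free replicates 1 to 3. As CPM, the count relative to the library total after TMM scaling for RNA composition, these were 68.6, 147, 152 and 150 CPM with and 165, 170 and 177 CPM without a tumor. All 4 tumor-bearing values lay below all 3 tumor-free ones, under TMM, RLE, upper-quartile and total-count scaling alike. Among the genes tested, 1.32% had tumor-bearing libraries wholly below the tumor-free ones, 2.2% wholly above, and 3.53% did not overlap in either direction. The gap was narrow: the highest tumor-bearing value was 152 CPM and the lowest tumor-free one 165 CPM, and the 95% counting interval (exact Poisson) of that tumor-bearing library ran from 99.96 to 221 CPM. The means were 129 ± 40.6 CPM (SD, n = 4) with and 171 ± 6.03 CPM (SD, n = 3) without a tumor. The log2 fold change was -0.33 (SE 0.31, 95% interval -1.04 to 0.38; edgeR's quasi-likelihood test with Benjamini-Hochberg adjustment over all 2495 genes tested, adjusted p = 0.990). It was -0.21 without tumor-bearing replicate 1, which was the lowest library and the shallowest, and -0.40 in the 31-week mice alone.

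Fgf23, the phosphate-lowering hormone itself (chromosome 6, 127072902 to 127082296), had 0, 0, 3 and 3 counts in tumor-bearing replicates 1 to 4 and 0, 1 and 2 counts in tumor-free replicates 1 to 3. The 6 tumor-bearing against 3 tumor-free counts gave a ratio of 1.40 per scaled library size, with an interval from 0.299 to 8.65 that covers counting error only. No direction can be read at this depth: a count of 0 allows a level of up to 3 counts, which is 16.9 CPM in the largest library and 41.1 CPM in the smallest. Dmp1, an acidic phosphoprotein of the osteocyte matrix whose loss also raises FGF23, had 1 count in tumor-bearing replicate 4 and 2 counts in tumor-free replicate 1. Its chromosome 5 neighbour Mepe, the source of peptides that bind mineral and hinder its growth, had 1 count in tumor-bearing replicate 3. Fam20c, the secretory kinase that phosphorylates such proteins, had 0 counts among 486964 tumor-bearing and 343709 tumor-free counts. The limits that a count of 0 allows there are 6.16 and 8.73 CPM over each whole group.

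Sost, which encodes sclerostin, the Wnt inhibitor of mature osteocytes (chromosome 11, 101962458 to 101967015), had 0 counts in all 4 tumor-bearing libraries and 1 count in tumor-free replicate 3. Reln, a large secreted glycoprotein best known from neuronal migration and listed as an osteocyte marker, had 0 counts in tumor-bearing libraries and 1 count in tumor-free replicate 1. Ackr3, a scavenging receptor for the chemokine CXCL12, had 1 count in tumor-bearing replicate 4 and 0 counts in tumor-free libraries. Both groups lay at or below 3 counts for Dmp1, Mepe, Sost, Reln and Ackr3, so no fold is given. In the edgeR fit with no filter on low counts (13344 genes, 0% called, 1.52% higher and 1.91% lower at an unadjusted p under 0.05) the adjusted p of the 6 sparse genes with a count lay between 0.795 and 0.883.

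Pdpn encodes podoplanin (E11 or gp38), a membrane mucin of the growing osteocyte process (chromosome 4, 143267409 to 143299564, minus strand). It had 20, 14, 25 and 28 counts in tumor-bearing replicates 1 to 4, and 19, 38 and 26 counts in tumor-free replicates 1 to 3. These were 274, 147, 140.4 and 191 CPM with and 185, 323 and 209.5 CPM without a tumor, or 188 ± 61.6 CPM (SD, n = 4) and 239 ± 73.4 CPM (SD, n = 3). The groups overlapped, with tumor-bearing replicate 1 above 2 of the 3 tumor-free libraries. The log2 fold change was -0.39 (SE 0.34, 95% interval -1.18 to 0.40; edgeR adjusted p = 0.990), and -0.098 without tumor-free replicate 2, the highest library. Pdpn is also made by lymphatic endothelium, whose cells carry CD31 and which the CD31- gate was set to remove. Of 4 markers fixed for that cell type 3 were in the files. They had 1 (Lyve1), 7 (Prox1) and 4 (Flt4) counts over all libraries. Their summed level was 10.5 to 16.9 CPM in tumor-bearing and 8.06 to 19.5 CPM in tumor-free libraries. The part of lymphatic endothelium or of other cell types in the counts of Pdpn was not tested.

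Kcnk2 encodes TREK-1, a potassium channel that opens when the membrane is stretched (chromosome 1, 189207930 to 189402782, minus strand). It had 8, 17, 27 and 18 counts in tumor-bearing replicates 1 to 4, and 7, 31 and 15 counts in tumor-free replicates 1 to 3. The levels were 110, 179, 152 and 123 CPM with and 68.1, 263 and 121 CPM without a tumor. Both the lowest and the highest value belonged to tumor-free mice, and the spread there, 151 ± 101 CPM (SD, n = 3), was wider than in tumor-bearing mice, 141 ± 30.8 CPM (SD, n = 4). The log2 fold change was -0.11 (SE 0.43, 95% interval -1.11 to 0.89; edgeR adjusted p = 0.990). It was 0.57 without tumor-free replicate 2, the highest library and the one mouse whose removal turned the sign, and -0.50 to -0.043 without any 1 of the other 6.

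**Figure D2:**
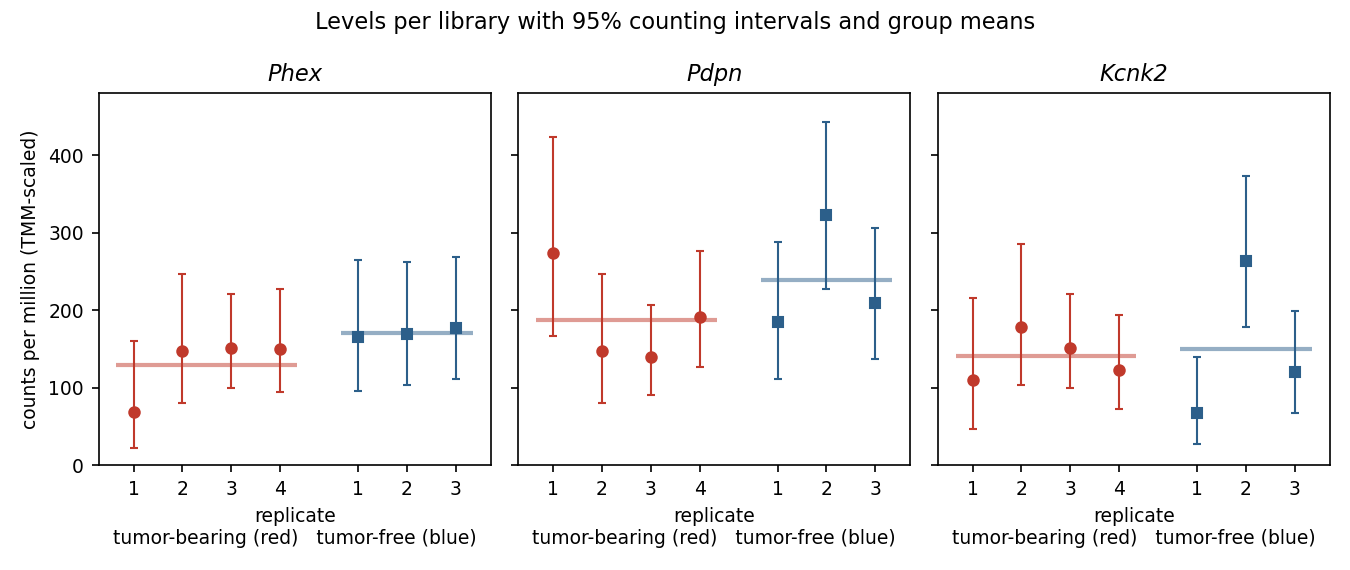
Level of Phex, Pdpn and Kcnk2 in each library (vertical axis, CPM on TMM-scaled library sizes; horizontal axis, replicate), tumor-bearing at the left and tumor-free at the right of each panel. Bars are exact 95% Poisson intervals of the count and horizontal lines are group means; Phex runs from 68.6 to 152 CPM with a tumor and from 165 to 177 CPM without, while Pdpn and Kcnk2 overlap.

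Over the 10 genes together the level was 453, 473, 466 and 498 CPM in tumor-bearing replicates 1 to 4 and 447, 764 and 532 CPM in tumor-free replicates 1 to 3. The tumor-bearing sums were close to each other, and tumor-free replicate 2 stood above all others through Pdpn and Kcnk2. The log2 ratio of the mean sums was -0.30, and -0.055 without tumor-free replicate 2. Of the 10 genes, 3 were tested and 0 were called; all 3 lay below 0, with a median log2 fold change of -0.33, beside a median of 0.038 over all 2495 genes tested, 45.9% of which lay below 0. Over all genes tested, 0% were called (0 of 2495, edgeR), with 25 genes higher (1%) and 42 lower (1.68%) at an unadjusted p under 0.05. DESeq2 also called 0, with 13 higher and 36 lower unadjusted. None of the 3 osteocyte genes was among them (unadjusted p of 0.315 for Phex, 0.287 for Pdpn and 0.804 for Kcnk2, edgeR).

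Correlations among the 3 counted genes across mice were weak. Over the 7 libraries the Pearson correlation of log2 CPM, given as a description, was -0.31 for Phex with Pdpn, 0.17 for Phex with Kcnk2 and 0.20 for Pdpn with Kcnk2, and all 3 Spearman values lay between -0.14 and 0.071. The genes whose pattern over the 7 libraries was most like that of Phex were Atp7a, a copper transporter (Pearson 0.977, Spearman 0.786), Snw1 (0.962 and 0.357) and Amy2a4 (0.951 and 0.607). For Pdpn they were Atxn7l3b (0.923 and 0.964), Prkx (0.908 and 0.893) and Tnfrsf13c (0.908 and 1), and for Kcnk2 BC024386 (0.964 and 0.964), Qk (0.949 and 0.857) and Atg7 (0.897 and 0.857). These are the highest of 2494 values for each gene, so no p is given. Without the pair of libraries farthest from the median, the Pearson value of Atp7a with Phex was 0.365, and those of the other 8 lay between 0.639 and 0.898. For Phex this pair was tumor-bearing replicate 1 and tumor-free replicate 3. They were left out together, so the part of each in the likeness of Atp7a to Phex was not tested.

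Features of the transcripts were compared because libraries primed on poly(A) can also start at internal runs of A. Stretches of 12 bases holding 11 or more A, not within the final 100 bases, were counted in the longest coding transcript of each gene (GENCODE vM21). Phex (6265 bases), Pdpn (1817 bases) and Kcnk2 (3572 bases) had 0 such windows; of the annotated transcripts of the 3 genes, 1 of the 10 of Kcnk2 had one. Among coding genes with 100 or more counts 43.4% had such a window, against 18.1% of all coding genes in the files. The longest coding transcripts of the former had a median of 4152 bases, against 2828 bases for all. The part of transcript length in this contrast was not tested, and introns were not searched. Ackr3, with 1 count, had 1 window. No exon of Phex or Pdpn overlapped an exon of another gene. Kcnk2 overlaps A430027H14Rik and Reln overlaps Gm10475 on the opposite strand; whether counting used strand is not stated, so reads of these pairs cannot be told apart. By gene span, the 3 counted genes were among the 5 longest of the 10: Kcnk2 spans 194853 bases, Phex 253212 and Pdpn 32156. The other 2 of these 5 were sparse, Reln with a span of 460252 bases and Fam20c with 54983. The 5 shortest genes, Dmp1, Mepe, Ackr3, Fgf23 and Sost, span 4558 to 16528 bases and had 1 to 9 counts each.

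Related genes differed in coverage from list to list. A total of 10 counts or more was reached by 25.02% of all IDs, by 3 of the 10 osteocyte genes, by 11 of 22 sclerostin and Wnt genes and by 5 of 7 partners of Ackr3. Of 20 other genes listed as enriched in osteocytes, 19 had at least 1 count, 8 had 10 or more, and 3 were tested, of which 0 were called (1 above and 2 below 0, median log2 fold change -0.014). Mmp14, the membrane collagenase needed for osteocyte processes, had 367 ± 95.8 CPM with against 341 ± 17.8 CPM without a tumor, a log2 fold change of 0.029 (SE 0.26; here and for the genes that follow, ± is the SD over 4 tumor-bearing and 3 tumor-free libraries). Dkk1, a Wnt inhibitor that osteocytes share with sclerostin, had 62.1 ± 23.1 CPM with against 92.5 ± 48.6 CPM without a tumor (-0.49, SE 0.48), and the guidance factor Sema3e had 85.4 ± 28.0 CPM with against 87.9 ± 34.1 CPM without a tumor (-0.014, SE 0.43). Gja1, which encodes connexin 43 of the junctions between osteocytes, was too sparse to test: it had 0, 8, 8 and 5 counts in tumor-bearing replicates 1 to 4 and 8, 15 and 10 counts in tumor-free replicates 1 to 3. Without tumor-free replicate 1 the log2 fold change of Dkk1 was 0.15. Those of Mmp14 and Sema3e changed sign with 1 library left out, lying between -0.089 and 0.27 for Mmp14 and between -0.33 and 0.21 for Sema3e.

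Of 19 genes of phosphate handling and mineralization, 5 had 0 counts and 3 were tested, with 0 called and all 3 below 0 (median -0.16). Pcsk5, a proprotein convertase, had 427 ± 122 CPM in tumor-bearing and 523 ± 182 CPM in tumor-free mice (log2 fold change -0.38, SE 0.32). Furin, the protease that can cut and inactivate FGF23, had 110 ± 62.4 CPM with against 124 ± 27.9 CPM without a tumor (-0.13, SE 0.46), and Smpd3, a sphingomyelinase required for mineralization, 172 ± 34.2 CPM with against 199 ± 70.9 CPM without a tumor (-0.16, SE 0.35). Without tumor-free replicate 1 the log2 fold change of Pcsk5 was -0.71, and without tumor-free replicate 3, tumor-free replicate 2 or tumor-bearing replicate 4 it was -0.14, -0.16 or -0.18. Smpd3 was 0.13 without tumor-free replicate 1, and Furin was 0.14 without that library and 0.029 without tumor-bearing replicate 1. Vdr, the vitamin D receptor, was not tested: 68 of its 80 counts came from tumor-bearing replicate 3. The 5 acidic phosphoprotein genes clustered on chromosome 5 were also unequal. Ibsp had 147 counts and Spp1 32, and Dmp1, Mepe and Dspp 3, 1 and 1. Ibsp, bone sialoprotein, had 184 ± 112 CPM in tumor-bearing and 157 ± 51.8 CPM in tumor-free mice (0.21, SE 0.46); 51 of its counts came from tumor-bearing replicate 4, without which the log2 fold change was -0.55.

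Of 22 genes listed as partners of sclerostin in Wnt signalling 6 were tested, with 0 called, 1 above and 5 below 0 (median -0.50). Lrp4, the receptor that anchors sclerostin, had 557 ± 119 CPM in tumor-bearing and 942 ± 679.8 CPM in tumor-free mice (log2 fold change -0.76, SE 0.37), and 177 of its 571 counts came from tumor-free replicate 1, without which the log2 fold change was -0.10. Sik1, of a kinase family through which PTH lowers Sost, had 482 ± 198 CPM with against 868 ± 469 CPM without a tumor (-0.79, SE 0.35). Of its 552 counts 157 came from tumor-free replicate 2, without which the log2 fold change was -0.50. Sik2 and Sik3 of the same family had 0 counts in all libraries. Dkk2, another secreted Wnt regulator, had 431 ± 76.2 CPM with against 446 ± 70.8 CPM without a tumor (-0.089, SE 0.24), and 0.060 without tumor-free replicate 3. Sostdc1, a relative of sclerostin, was not tested: 169 of its 197 counts came from tumor-bearing replicate 3.

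Partners of the remaining genes gave no call either. Of 4 genes for reelin receptors and adaptors, Lrp8 was tested (93.1 ± 26.9 CPM in tumor-bearing, 95.7 ± 54.0 CPM in tumor-free mice; -0.10, SE 0.46), and Vldlr had 27 counts, 16 of them in tumor-bearing replicate 4. Of 7 partners of Ackr3, Cxcl11, a chemokine it binds, had 373 ± 91.4 CPM with against 336 ± 47.5 CPM without a tumor (0.12, SE 0.27) and Calcrl, the adrenomedullin receptor, 345 ± 63.9 CPM with against 284 ± 54.8 CPM without a tumor (0.28, SE 0.26). Of the podoplanin partners 8 were in the files and 1 was tested, Rhoa (154 ± 53.6 CPM with against 158 ± 39.7 CPM without a tumor; -0.033, SE 0.31); Cd44, a membrane receptor that binds podoplanin, had 28 counts and Rdx, which links membrane proteins to actin, 14. Of 10 mechanosensing genes beside Kcnk2, Pkd2 was tested (405 ± 93.2 CPM with against 375 ± 92.0 CPM without a tumor; 0.11, SE 0.29), while P2rx7, an ATP-gated channel, had 24 counts and Piezo2, a stretch-gated channel, 12. None of these passed edgeR's test (adjusted p over all genes tested). With 1 library left out, Calcrl stayed above 0, at 0.12 without tumor-bearing replicate 1 and 0.44 without tumor-free replicate 3. The others turned sign: Lrp8 was 0.46 without tumor-free replicate 1, Cxcl11 -0.059 and Rhoa 0.088 without tumor-bearing replicate 1, and Pkd2 -0.082 without tumor-free replicate 1.

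**Figure D3:**
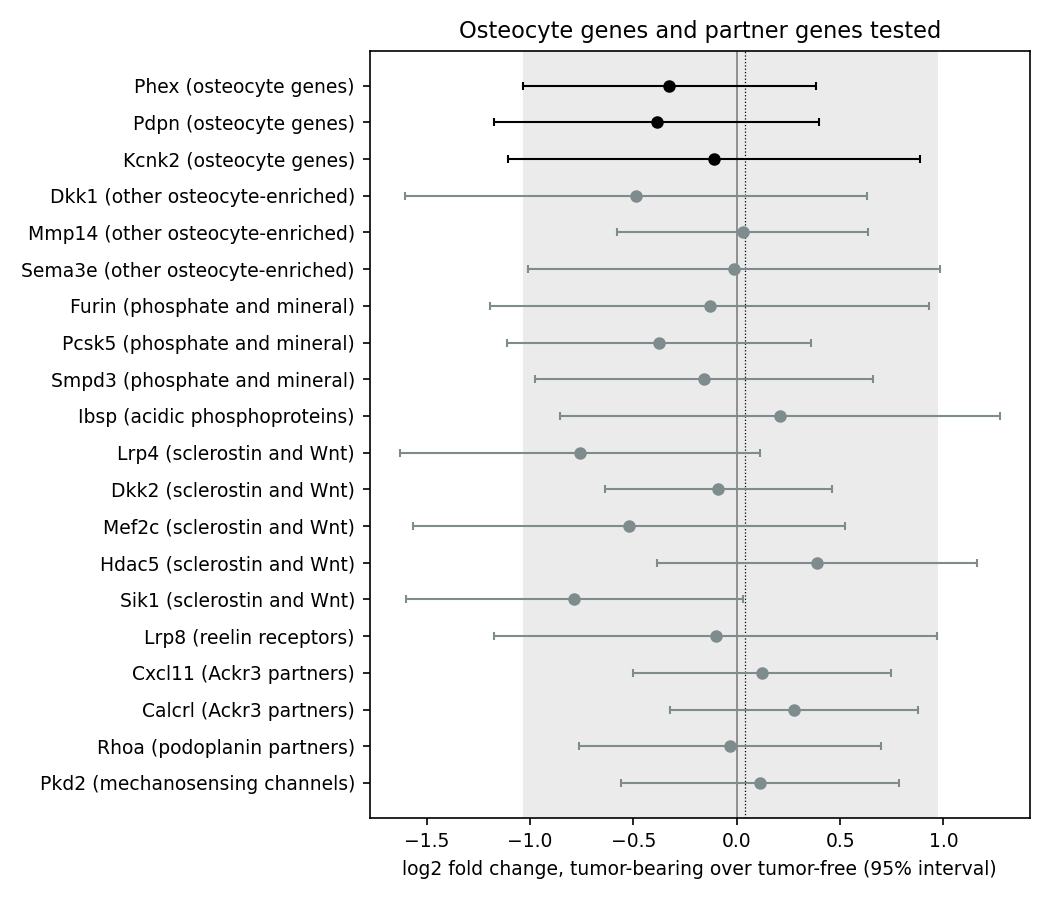
Log2 fold change, tumor-bearing over tumor-free, with its 95% interval for each gene tested (edgeR; horizontal axis), osteocyte genes in black and genes of the related lists in grey. The shaded band holds the middle 95% of all 2495 genes tested, from -1.03 to 0.97, and the dotted line is their median; every interval shown spans 0.

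**Figure D4:**
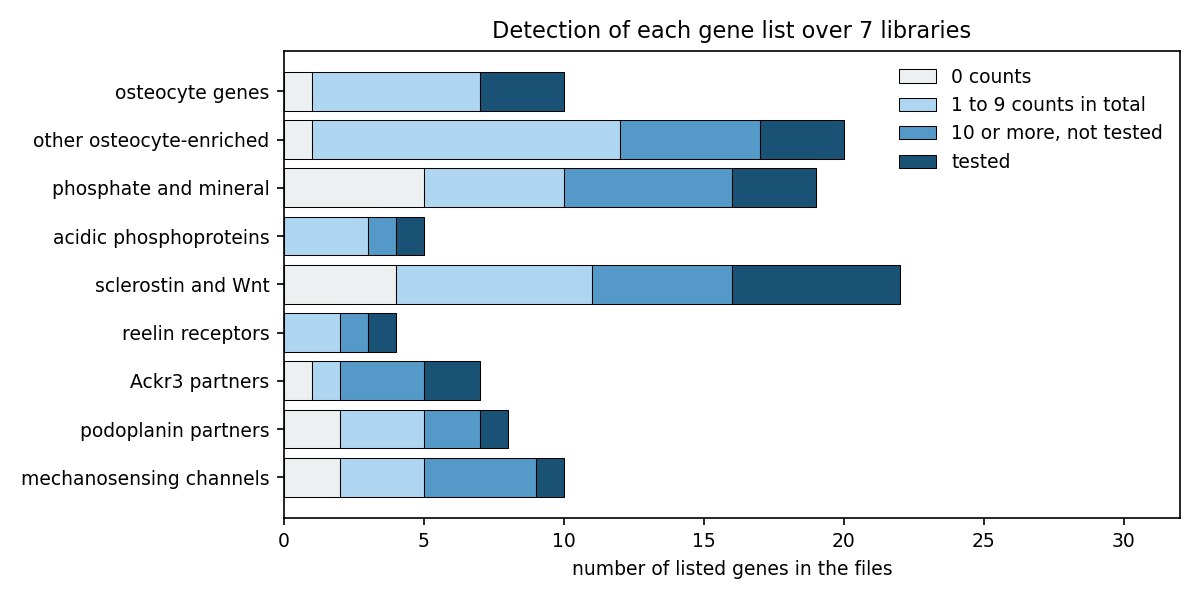
Number of genes (horizontal axis) of each list by total count over 7 libraries: none, 1 to 9, 10 or more but removed by the low count filter, and tested. Of the 10 osteocyte genes 1 had 0 counts, 6 had 1 to 9 counts and 3 were tested; every other list held at most 6 genes tested.

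Markers of osteoblasts were present beside these genes. All 11 listed had a count; Col1a1 had 305, Runx2 173 and Ibsp 147 counts over all libraries, but Bglap, the osteocalcin gene, had 8 and Sp7 4. The summed level of the osteoblast list was 1135 to 1756 CPM in tumor-bearing and 1531 to 2578 CPM in tumor-free libraries, and 6 of its genes were tested, with 0 called, 1 above and 5 below 0 (median log2 fold change -0.50, beside -0.33 for the 3 osteocyte genes). Col1a1, a collagen chain of bone matrix, had a log2 fold change of -1.06 (SE 0.52). Pth1r, the parathyroid hormone receptor, had 151, 147, 174 and 177 CPM in tumor-bearing replicates 1 to 4. It had 224, 263 and 226 CPM in tumor-free replicates 1 to 3, so its groups did not overlap (-0.52, SE 0.24, edgeR adjusted p = 0.990). Among all genes tested, 1.32% had tumor-bearing libraries wholly below the tumor-free ones, and 3.53% did not overlap in either direction. The part of these levels in the values of the osteocyte genes was not tested. Markers of other cells were mixed. All but Cdh5 of 6 endothelial markers (0 to 5.62 CPM with, 0 to 8.49 CPM without a tumor) and all but Itga2b of 5 megakaryocyte markers (0 CPM with, 0 to 24.2 CPM without a tumor) were at 0. For osteoclasts Mmp9, Ocstamp, Dcstamp and Calcr were at 0 and Atp6v0d2 had 32 counts (sums of 56.2 to 68.6 CPM with and 17.0 to 48.4 CPM without a tumor). For leukocytes Lyz2, S100a8, Elane and Cd79a were at 0 and Csf1r had 114 counts (116 to 178 CPM with, 87.5 to 195 CPM without a tumor). Muscle markers summed to 5.62 to 68.6 CPM with a tumor and to 0 CPM without, with Acta1 and Mylpf at 0 and 7 counts of Tnnt3. Erythroid markers, led by Hba-a2, summed to 68.2 to 110 CPM with, 127 to 195 CPM without a tumor. The sums of the osteoclast, muscle and erythroid lists did not overlap between the groups. Their leading genes, Atp6v0d2, Tnnt3 and Hba-a2, had 32, 7 and 35 counts over all libraries, and the cause was not tested. Higher sums were led by single genes in 3 lists. Sox9 led the chondrocyte list (617 to 2870 CPM with, 862 to 1089 CPM without a tumor; Col10a1 at 0) and Lepr the marrow stromal list (736 to 1193 CPM with, 739 to 814 CPM without a tumor; Adipoq at 0). Lpl led the adipocyte list (1030 to 1701 CPM with, 1281 to 1638 CPM without a tumor; Adipoq, Plin1 and Fabp4 at 0). The CD45-, Ter119- and CD31- gates were set to remove leukocytes, erythroid cells and endothelium. The part of other cell types, gated or not, in the counts of the osteocyte genes was not tested.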

How the data were processed

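From each mouse, RNA of 2000 sorted cells was made, per the labels' protocols, into a 3'-end library by a custom CEL-Seq protocol using molecular identifiers. TopHat2 2.0.10, SAMtools and build mm10 are named in the submitters' processing notes. No source used here gives the counting program, its annotation or strand, or says if identifiers were collapsed. The highest count of any gene was 282 to 303 in every library, although library totals ran from 77127 to 169774 counts. The cause of this even maximum, and its effect on CPM, was not tested. The authors deposited raw counts by Entrez gene ID, with no normalization. Symbols and coordinates came from a RefSeq table of GRCm38.p6, which matched 23666 of 23725 IDs.

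The 10 members and all lists were chosen with earlier results of these data known. Genes were filtered with filterByExpr (minimum count 10, minimum total 15) of edgeR 4.0.16 in R 4.3.3, which left 2495 genes, and TMM factors ran from 0.945 to 1.05. The tumor term was tested with glmQLFit and glmQLFTest with age as a factor, adjusted by Benjamini-Hochberg at 0.05. SE were taken from the fold change and its F statistic; the prior count was 0.125. The fitting was checked on simulated counts. Genes named were the members, up to 4 genes with most counts per related list, list leaders and markers at 0, and the 3 genes most like each tested member (log2 CPM, prior count 2). Runx2, Pth1r, Bglap, Sp7, Lyve1, Flt4, Sik2 and Sik3 fall outside this rule and were named after their values were seen. Alternatives used DESeq2 1.42.0 and limma 3.58.1 (voom), other filters, scalings and models, and each library left out. Counting intervals and limits cover counting error only. The result of 1 marker list is not reported here.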

Additional observations from a re-analysis of the deposited data

Results flagged for a closer look

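Phex in tumor-bearing mice was singled out because 1 of the 4 libraries lay far from the others. Tumor-bearing replicate 1 had 68.6 CPM (5 counts), and the other 3 had 147 to 152 CPM. The gap to the nearest library made up 0.945 of the whole range of the group, above Dixon's 95% critical value for 4 samples. It was the shallowest library, with 77127 counts, and its 95% counting interval for Phex, 22.3 to 160.0 CPM, holds the values of the other 3. Chance flags about 1 in 20 groups, and the same measure was 0.622 for Pdpn and 0.392 for Kcnk2.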

How the results depend on the processing

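Over 18 alternatives (DESeq2, limma voom, a legacy fit, RLE, upper-quartile and total-count scaling, other filters, no age term, 31-week mice, a replicate block and 7 fits with a library left out) the number of genes called was 0 in each. Phex (-0.51 to -0.21) and Pdpn (-0.60 to -0.098) stayed below 0 in each of the 17 alternatives that tested them, with no adjusted p under 0.795, and the summed level of the 10 genes stayed below 0 in 11 (-0.46 to -0.055). The other scalings moved the median log2 fold change of all genes by -0.019 to 0.0066. At 30 counts in at least 3 libraries none of the 10 genes was tested, so no value exists there. Kcnk2 was 0.022 with the replicate block, 0.068 with limma voom, and -0.50 to 0.57 with 1 library left out. Of the related genes that turned sign, Mmp14 was -0.0011 with the filter of 30 counts; Sema3e was 0.18 in 31-week mice, 0.0036 with total counts and 0.0095 with no filter; Ibsp was -0.51 in 31-week mice and -0.30 with the replicate block; Dkk2 was 0.043 in 31-week mice; and Rhoa was 0.017 with the replicate block. With 1 library left out the ranges were -0.089 to 0.27 for Mmp14, -0.33 to 0.21 for Sema3e, -0.88 to 0.15 for Dkk1, -0.49 to 0.13 for Smpd3, -0.54 to 0.14 for Furin, -0.55 to 0.63 for Ibsp, -0.26 to 0.060 for Dkk2, -0.49 to 0.46 for Lrp8, -0.059 to 0.25 for Cxcl11, -0.20 to 0.088 for Rhoa and -0.082 to 0.29 for Pkd2; where this turned the sign the cause was not tested. The replicate block left out tumor-bearing replicate 4 and the age term. Whether the replicate numbers pair the mice is not settled, and replicate 3 was 31 weeks old with and 23 weeks old without a tumor. Libraries with the same number deviated from their group means with correlations of -0.21, -0.12 and -0.15. Such values from shallow libraries cannot show whether the mice were paired. At an unadjusted p under 0.05 the block gave 8 higher and 29 lower genes. Depth limits the 7 sparse genes: none had more than 3 counts in a library, and 3 counts are 16.9 to 41.1 CPM. No direction was read from them, and the smallest detectable difference was not computed.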
